A study of Homo sapiens with 31 samples.

Results

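The SLAM receptor gene cluster of chromosome 1 was examined in 13 EVI1 and CTBP2 ChIP-seq peak lists of human myeloid leukaemia cell lines. Its 7 genes are SLAMF6, CD84, SLAMF1, CD48, SLAMF7, LY9 and CD244, in that order along the chromosome. Members were the peaks with a summit between 160400001 and 160900000 of hg19 whose nearest protein-coding start site belonged to one of these genes, and the cluster was chosen from the CTBP2 peaks lost and kept with dox and from their EVI1 status, so both are given as descriptions without a test. In all, 324 of 533140 peaks were members. Another 10 peaks of the window were nearest to ITLN1, and no member peak lay outside the window. The last member region before them, at chr1:160837896-160838219 and 5340 bp upstream of CD244, was called in 3 lists, and the first region given to ITLN1, at chr1:160845355-160846275, in 5.

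The main comparison used MUTZ3 cells that carry pCW-4xPLDLS, a lentiviral construct from which doxycycline (dox) induces 4 copies of PLDLS, the short motif through which EVI1 binds CTBP. They were harvested at 72 h with dox or untreated, and CTBP2 and EVI1 were each mapped in 2 libraries per treatment after crosslinking with DSG and formaldehyde. Both treatments share the construct, and the cells are a single modified line. Single lists came from CTBP2 and EVI1 in unmodified MUTZ3 cells and from CTBP2 in MOLM1 cells, which carry an inducible hairpin against EVI1 and were left untreated. A further 2 CTBP2 lists came from MUTZ3 cells transduced with retroviral 4xPLASS, the mutated form of the peptide. All lists were made with DSG except that of CTBP2 in unmodified MUTZ3, which was crosslinked with formaldehyde alone. The lists held between 6688 and 72214 peaks. Read counts are not part of them and depth is unknown, so a lower peak number cannot be told apart from a shallower library. Nothing in the labels says that the 2 libraries of a group came from separate cultures.

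SLAM receptors are surface proteins of blood cells that bind each other between neighbouring cells and signal through the adaptors SAP and EAT-2, encoded by SH2D1A and SH2D1B. Most of them, among them SLAMF1, SLAMF6, CD84, LY9 and SLAMF7, bind a copy of themselves, whereas CD48, which is held to the membrane by a lipid anchor, is the ligand of CD244. In mice, SLAMF1 together with absence of CD48 marks blood stem cells. EVI1 is a zinc finger protein expressed from the MECOM gene in leukaemias with a rearranged MECOM locus, and CTBP2 is a corepressor that it recruits. Fold enrichment is the signal at a peak summit over the local background as the peak caller reports it. A pair of values gives replicates 1 and 2, in that order.

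A CTBP2 site was an interval called in both untreated libraries. A site was termed kept with a peak in both dox libraries, partly kept with a peak in 1, and lost with a peak in neither. Sequences under the summits of kept and lost sites are shown first, because the contrast between them is what the cluster was chosen for. All are the plus strand of GRCh37, 5′ to 3′, up to 300 bases centred on the summit in untreated replicate 1 and ended where an untranslated region begins. Capitals mark a match on either strand to AGATAA, the GATA-type core that is also part of an EVI1 motif, to GATGAG, the other EVI1 motif, to the ETS core GGAAGT, to the RUNX core TGTGGT or to CAGGTG, the E-box of ZEB proteins. The first 2 lines hold kept sites, beyond the 3′ end of CD84 and at the SLAMF1 start.

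SLAMF6-CD84 interval, kept, chr1:160509964-160510263: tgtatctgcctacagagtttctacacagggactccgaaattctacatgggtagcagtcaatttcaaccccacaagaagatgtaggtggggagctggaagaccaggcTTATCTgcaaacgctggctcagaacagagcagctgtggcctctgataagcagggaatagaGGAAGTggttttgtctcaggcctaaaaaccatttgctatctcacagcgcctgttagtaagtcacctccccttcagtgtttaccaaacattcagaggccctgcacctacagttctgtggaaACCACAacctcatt
SLAMF1 promoter, kept, chr1:160616835-160617007: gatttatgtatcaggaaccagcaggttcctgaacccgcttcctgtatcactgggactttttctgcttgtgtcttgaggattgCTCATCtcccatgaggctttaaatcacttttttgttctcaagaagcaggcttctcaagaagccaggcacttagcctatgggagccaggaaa

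The next 3 lines hold, by untreated replicate 1, the strongest lost site, the strongest lost site of CD48 and the strongest site of LY9, which is a weak one at a gene that lost all its CTBP2 sites.

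CD244 intron, lost, chr1:160830644-160830943: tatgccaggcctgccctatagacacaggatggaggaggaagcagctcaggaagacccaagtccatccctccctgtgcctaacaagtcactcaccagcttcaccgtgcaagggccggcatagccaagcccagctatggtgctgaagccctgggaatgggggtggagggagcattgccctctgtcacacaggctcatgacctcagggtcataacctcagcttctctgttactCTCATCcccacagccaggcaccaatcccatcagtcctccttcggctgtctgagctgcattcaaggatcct
CD48 intron, lost, chr1:160651305-160651604: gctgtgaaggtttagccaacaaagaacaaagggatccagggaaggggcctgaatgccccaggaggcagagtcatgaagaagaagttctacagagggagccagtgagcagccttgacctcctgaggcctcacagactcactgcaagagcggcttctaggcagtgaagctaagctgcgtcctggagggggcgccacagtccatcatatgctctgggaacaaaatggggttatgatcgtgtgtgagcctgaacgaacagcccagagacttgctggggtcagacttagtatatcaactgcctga
LY9 upstream, lost, chr1:160747399-160747698: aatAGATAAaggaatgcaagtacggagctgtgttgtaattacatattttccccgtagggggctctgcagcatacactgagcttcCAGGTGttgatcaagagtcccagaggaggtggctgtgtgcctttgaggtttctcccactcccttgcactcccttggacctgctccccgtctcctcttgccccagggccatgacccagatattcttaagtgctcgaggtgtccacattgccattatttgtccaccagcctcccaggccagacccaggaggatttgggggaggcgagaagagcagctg

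The members' peaks were fewer with dox for CTBP2. The 2 untreated CTBP2 lists held 35 and 44 peaks of the cluster, whereas those with dox had 14 and 20. The means were 39.5 ± 6.36 and 17.0 ± 4.24 (SD, n = 2), a log2 ratio of -1.22. Over all peaks of the same lists the log2 ratio was -1.29, so the cluster moved with the lists as wholes. Its share of each list was 0.562 and 0.778 peaks per 1000 untreated and 0.569 and 0.838 with dox, and these overlapped. When each list was limited to its 23878 strongest peaks by −log10 p, the size of the smallest CTBP2 list, the cluster held 9 and 15 untreated peaks and 13 and 20 dox peaks, which turned the direction.

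EVI1 peaks of the cluster numbered 31 and 33 untreated and 24 and 30 with dox. The dox lists were both below the untreated ones, with means of 32.0 ± 1.41 and 27 ± 4.24 (SD, n = 2) and a log2 ratio of -0.25, beside -0.29 over all EVI1 peaks. An exact two-sided permutation test gave p = 0.333, which is the smallest p that 2 against 2 libraries allow. No difference could therefore pass this test.

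Taken over all 13 lists, the members' peaks merged into 72 regions. Of these, 4 had a peak in every list and 1 in 12 lists. A further 30 had a peak in a single list, beside 46.1% of all 131683 regions, and 9 of the 30 were in MOLM1 alone. The shares of all regions in every list, in 12 lists and in MOLM1 alone were not computed. CTBP2 without EVI1 was listed at 28 regions, EVI1 without CTBP2 at 13 and both at 31. Over all regions these were 32.7%, 22.6% and 44.6%, from 8 CTBP2 and 5 EVI1 lists. LY9, a homophilic receptor of T and B cells, had 12 regions, of which 7 held EVI1 peaks only, 6 of them in a single list. The other was its own start, where EVI1 had a peak in untreated replicate 1 at a fold enrichment of 7.10, in both dox lists at 7.60 and 4.70 and in unmodified MUTZ3 at 6.48, with no CTBP2 peak in any list. CD48, CD84 and SLAMF7, by contrast, had 8, 6 and 5 regions, none of which held EVI1 peaks only. SLAMF6 had 11 regions, 1 with EVI1 only and 6 with CTBP2 only. SLAMF1 had 16 regions, 3 with EVI1 only and 7 with CTBP2 only, and CD244 had 14, 2 with EVI1 only and 7 with CTBP2 only.

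**Figure D1:**
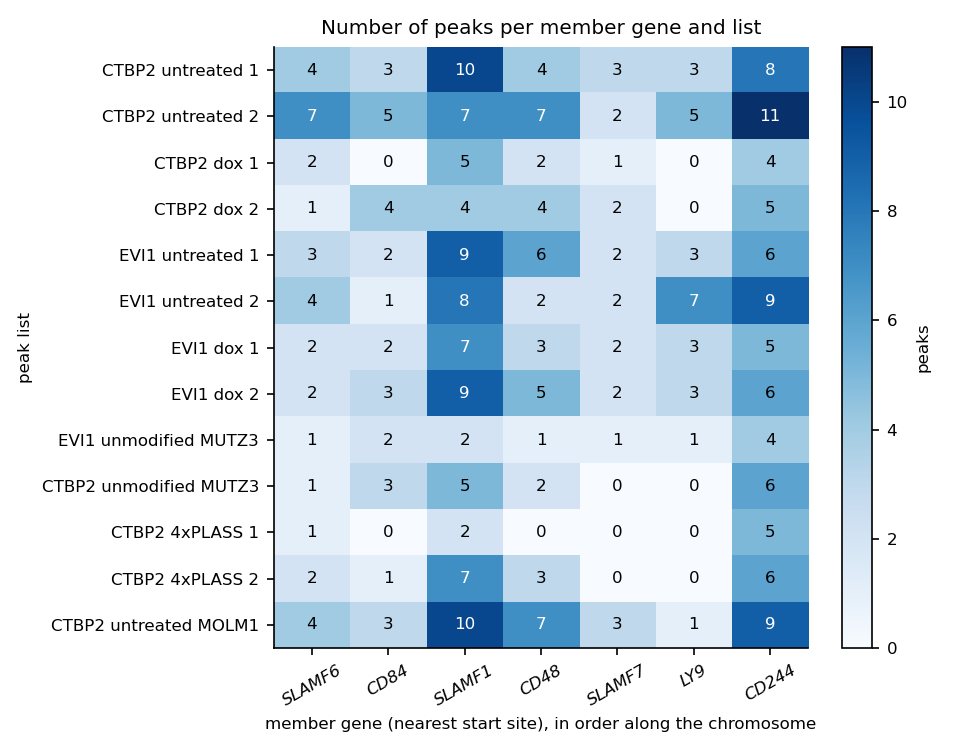
Number of peaks by list (vertical) and member gene (horizontal), with darker cells for more peaks. SLAMF1 with 2 to 10 peaks and CD244 with 4 to 11 were the genes with most peaks, and LY9 had 3 and 5 in the untreated CTBP2 lists, 0 in both CTBP2 dox lists, 0 in unmodified MUTZ3 and both 4xPLASS lists, and 1 in MOLM1.

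There were 25 CTBP2 sites in the cluster, of 37227 in the genome. With dox, 9 were lost, 6 were partly kept and 10 were kept. The lost share was 36.0%, beside 41.0% of all sites, and the kept share was 40.0%, beside 38.4% of all sites. Each dox library held 13 of the 25 sites, 52.0% ± 0 (SD, n = 2), where all sites gave 48.7% ± 3.03. The cluster as a whole thus stood near the background. In lists of equal size 8 sites were left, of which 1 was lost and 7 were kept. The share over all genes was not computed for lists of that size, so these counts have no background beside them. By gene the counts varied: of 6 sites of CD244 4 were kept, of 6 sites of SLAMF1 3 were kept, and of 3 sites of LY9 none was kept. The 7 sites within 1 kb of a start held 5 kept and 1 lost, and the 18 farther sites held 5 kept and 8 lost. Over all genes the sites within 1 kb were 44.8% kept and 30.1% lost, and those beyond were 36.4% kept and 44.5% lost.

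Over all genes, weak sites were lost more than strong ones. Sites were ordered by fold enrichment in untreated replicate 1 into 5 groups of equal size, and the lost share was 6.19% in the strongest group, 27.7% in the second, 46.2% in the third, 58.1% in the fourth and 66.9% in the weakest. In the cluster the lost sites were 0 of 4 in the strongest group, 1 of 1 in the second, 1 of 4 in the third, 2 of 7 in the fourth and 5 of 9 in the weakest. Lost sites had an untreated fold enrichment from 4.09 to 10.0 with a median of 5.30, partly kept sites from 4.27 to 6.84, and kept sites from 5.01 to 35.4 with a median of 8.03. A peak at the edge of calling decided some of these terms. The weakest dox peak at a site had a fold enrichment of 2.74 and a −log10 q of 1.66, at the SLAMF6 start, which made that site partly kept.

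**Figure D2:**
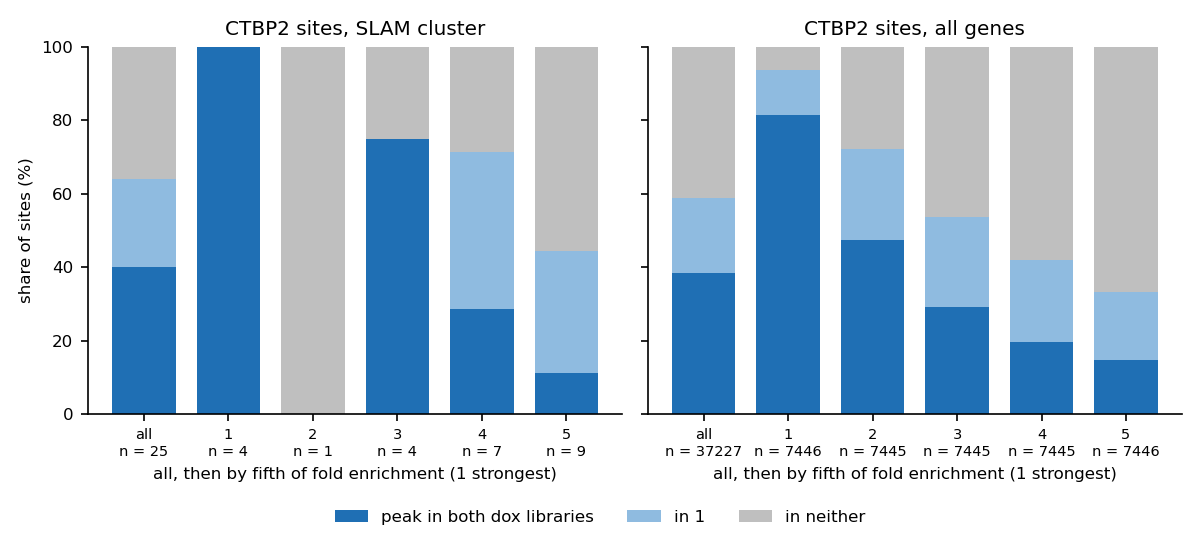
Share of CTBP2 sites (%) with a peak in both dox libraries, in 1 or in neither, over all sites and by 5 groups of fold enrichment in untreated replicate 1, for the SLAM cluster (left) and all genes (right), with the number of sites under each bar. The 4 cluster sites of the strongest group were kept, and 5 of the 9 in the weakest were lost.

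CD244, the receptor for CD48 on natural killer and T cells, carried the strongest CTBP2 site of the cluster in untreated replicate 1. In untreated replicate 2 and in both dox lists the site beyond the 3′ end of CD84 was stronger. The CD244 site lay in an intron at chr1:160806437-160808242, 25119 bp downstream of the start, and was called in all 13 lists. Its CTBP2 fold enrichment was 35.4 and 24.7 untreated and 10.4 and 12.2 with dox, so both dox values were below both untreated ones while the peak stayed. In untreated replicate 1 it ranked 265 of 62232 peaks, and in dox replicate 1 it ranked 1077 of 24588. EVI1 at this site was 37 and 63.5 untreated and 42.7 and 31.5 with dox, and these overlapped. In the other cells CTBP2 was 11.7 in unmodified MUTZ3, 4.97 and 13.5 with 4xPLASS and 28.2 in MOLM1, and EVI1 was 17.9 in unmodified MUTZ3.

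At the CD244 start a kept and a lost site lay side by side. The kept site at chr1:160831707-160832887, over an annotated untranslated region, had CTBP2 values of 19.4 and 15.4 untreated and 7.27 and 8.15 with dox. The lost site at chr1:160830596-160831589, in an intron and with its summit 1883 bp from the start, had values of 10.0 and 7.14 untreated and no peak with dox. It was the only lost site of the cluster with a fold enrichment of at least 10. It was called in 6 lists, the 2 untreated CTBP2 lists and all 4 EVI1 lists of the inducible cells, and in none of the other 7. EVI1 was 8.27 in untreated replicate 2 and 5.09 and 4.65 with dox, with summits 5, 72 and 40 bp away. In untreated replicate 1 only a long EVI1 peak reached the site, with its summit 1736 bp away at the CD244 start.

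The other 3 sites of CD244 were weaker in untreated replicate 1. The intron site at chr1:160815266-160815670 was kept, with 8.51 and 9.48 untreated and 5.67 and 3.81 with dox. The site 916 bp upstream, at chr1:160833235-160833907, was kept with 7.04 and 5.51 untreated and 3.17 and 5.28 with dox. The intron site at chr1:160825470-160825874 was lost, with 4.09 and 3.87 untreated, and EVI1 there was 3.31 and 3.37 untreated and 3.43 and 3.77 with dox. EVI1 at that lost site was thus no lower with dox in either library, and it was the weakest CTBP2 site of the cluster in untreated replicate 1.

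CD48, the ligand of CD244, had 4 sites, of which 2 were lost, 1 was partly kept and 1 was kept. Its strongest in untreated replicate 1, at chr1:160651273-160651782 in an intron 30166 bp downstream of the start, was lost. CTBP2 there was 7.43 and 4.74 untreated, ranking 22370 of 62232 and 37509 of 56526, with no peak in any other CTBP2 list. EVI1 was 5.17 and 8.75 untreated and 4.08 and 3.84 with dox, so EVI1 kept a peak at the lost CTBP2 site, with both dox values below the untreated ones. The second lost site, 928 bp upstream of the start at chr1:160682362-160682664, had 5.41 and 4.06 untreated and was also called in MOLM1 at 9.78. Next to it, the kept site 187 bp inside the gene had 6.99 and 4.42 untreated and 5.27 and 5.34 with dox, which overlapped. The partly kept site, 7358 bp inside the gene, had 6.84 and 10.6 untreated and 5.24 in dox replicate 2 alone. It was the strongest CD48 site in untreated replicate 2.

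SLAMF1, a homophilic receptor that is also a receptor of measles virus, had its strongest site at its own start. The site at chr1:160616521-160617477 spanned the start, with its summit 24 bp upstream, and was called in all 13 lists. CTBP2 was 18.8 and 12.7 untreated and 3.85 and 4.60 with dox, the lowest dox values of the 4 strongest sites and a log2 ratio of the means of -1.90. It ranked 2746 of 62232 and 4407 of 56526 untreated and, in the shorter dox lists, 19074 of 24588 and 16340 of 23878. EVI1 was 25.9 and 42.7 untreated and 27.9 and 32.4 with dox, so EVI1 values overlapped where those of CTBP2 did not. CTBP2 was 8.78 in unmodified MUTZ3, 5.02 and 13.7 with 4xPLASS and 15.9 in MOLM1, and EVI1 in unmodified MUTZ3 was 22.9.

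The other 5 sites of SLAMF1 were weaker in untreated replicate 1. The intron site at chr1:160595949-160596997 was kept with 7.29 and 6.73 untreated and 4.12 and 8.13 with dox. Untreated replicate 1 had 2 peaks in this site, and the dox summits lay 20 and 7 bp from that of the weaker one, at 6.79. The site 18692 bp upstream was kept with 5.01 and 12.3 untreated and 5.62 and 5.73 with dox. Its summit in dox replicate 1 lay 516 bp from that in untreated replicate 1, and the dox peak did not reach the untreated peak at 5.01. At both of these sites the values of the treatments overlapped. The sites 5438 and 16083 bp upstream were called in dox replicate 1 alone, at 5.52 and 3.10. The lost site was in an intron at chr1:160591305-160591675 with 4.32 and 4.47 untreated, and it had higher values in other cells: 9.44 in unmodified MUTZ3, 7.96 in 4xPLASS replicate 2 and 7.91 in MOLM1.

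SLAMF6 and CD84 are homophilic receptors of T, B and natural killer cells and lie next to each other. The strongest SLAMF6 site, at chr1:160509639-160510665, lay beyond the 3′ end of CD84 and 17062 bp upstream of the SLAMF6 start, so the nearest start site gave it to SLAMF6 although CD84 was the nearer gene body. It was called in all 13 lists and was kept. CTBP2 was 23.7 and 42.5 untreated and 15.6 and 14.1 with dox, at ranks 1272 of 62232 and 54 of 56526 untreated and 234 of 24588 and 596 of 23878 with dox. EVI1 was 40.2 and 23.8 untreated and 24.7 and 26.9 with dox, which overlapped. CTBP2 was 18.3 in unmodified MUTZ3, 14.7 and 16.4 with 4xPLASS and 29.6 in MOLM1, and EVI1 in unmodified MUTZ3 was 8.39. A lost site lay next to it, in the 3′ untranslated region of CD84 at chr1:160511346-160511661, with CTBP2 of 6.52 and 4.82 and EVI1 of 5.81 and 5.30 untreated, and neither factor had a peak there with dox or in the other 5 lists. The SLAMF6 start, at a coding exon 115 bp inside the gene, had 4.27 and 4.07 untreated and 2.74 in dox replicate 1 alone.

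CD84 had 1 CTBP2 site, in an intron at chr1:160544860-160545689 and 4281 bp inside the gene. It was partly kept, with 4.48 and 8.88 untreated and 8.13 in dox replicate 2 alone, and it ranked 48175 of 62232 in untreated replicate 1. EVI1 was 5.82 in untreated replicate 1 and 6.75 and 10.8 with dox, 8.99 in unmodified MUTZ3, and not called in untreated replicate 2. CTBP2 was 4.31 in unmodified MUTZ3 and 6.53 in MOLM1. The 2 CTBP2 dox lists differed most at CD84, with 0 and 4 peaks. One of the 4 lay in another intron region, at chr1:160537906-160538337, which was called in 9 lists, in untreated CTBP2 replicate 2 at 5.26, in dox replicate 2 at 4.76 and in MOLM1 at 14.2.

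SLAMF7, a homophilic receptor of plasma and natural killer cells, had 2 sites. The stronger in untreated replicate 1, at chr1:160708958-160709314 over an untranslated region at its start, was kept with 7.55 and 4.07 untreated and 7.01 and 3.92 with dox. These overlapped, and the log2 ratio of the means was -0.09. It ranked 21666 of 62232 in untreated replicate 1 and 4136 of 24588 in dox replicate 1. EVI1 there was 6.33 in untreated replicate 1, not called in replicate 2, and 5.01 and 5.18 with dox, and MOLM1 had CTBP2 at 8.17. The site 12060 bp upstream, the stronger in untreated replicate 2, was partly kept, with 6.30 and 7.55 untreated and 2.92 in dox replicate 2, and EVI1 there was 11.4 and 5.54 untreated and 6.70 and 11.7 with dox.

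LY9 had 3 sites, all upstream of its start, all lost and all weak. The strongest, at chr1:160747455-160747682 and 18315 bp upstream, had CTBP2 of 5.30 and 5.03, ranking 38288 of 62232 and 34055 of 56526. It was called in 3 lists only, the third being EVI1 in untreated replicate 2 at 4.39. The site 16048 bp upstream had CTBP2 of 5.07 and 3.85 and EVI1 of 4.58 and 3.62 untreated, and neither was called with dox. The site 5942 bp upstream, at chr1:160759700-160760015, went another way. CTBP2 was 4.70 and 4.19 untreated and absent with dox, and EVI1 was 9.49 and 8.08 untreated and 8.15 and 7.90 with dox, so the EVI1 values overlapped between the treatments.

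Among the 10 kept sites, both dox fold enrichments of CTBP2 were below both untreated ones at 6, beside 72.5% of all kept sites. The median log2 ratio of dox to untreated means was -0.77 in the cluster and -0.88 over all kept sites. The 4 kept sites of CD244, the SLAMF1 start and the site beyond CD84 were the 6, and the values overlapped at the kept sites of CD48 and SLAMF7 and at the other 2 of SLAMF1. Fold enrichments of different libraries are on different scales of depth and background, so these are orders, not losses of bound protein.

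EVI1 was listed at both lost and kept sites. An EVI1 site, called in both untreated EVI1 libraries, overlapped 7 of 9 lost sites, 3 of 6 partly kept sites and 7 of 10 kept sites. Over all genes it was 68.7% of lost sites, 86.6% of partly kept sites and 94.9% of kept sites. The kept and the partly kept sites of the cluster were lower than those of all genes on this count. Among the kept sites 3 made the difference: the SLAMF1 site 18692 bp upstream, the CD48 start and the SLAMF7 start. These 3 had an EVI1 peak in untreated replicate 1 and in both dox lists and lacked it in untreated replicate 2. In all, 8 sites had no EVI1 site, 6 of them for want of a peak in untreated replicate 2 and 2 for want of one in untreated replicate 1. All 25 sites had an EVI1 peak in at least 1 untreated EVI1 list, beside 93.8% of all CTBP2 sites. The order of lost and kept sites in the cluster therefore turned on the library. By untreated EVI1 replicate 1 alone the shares were 7 of 9 lost and 10 of 10 kept sites, and by replicate 2 alone 9 of 9 and 7 of 10. Over all genes, untreated EVI1 replicate 1 held 72.4% of lost and 97.9% of kept sites, and replicate 2 held 83.6% and 96.1%. Kept sites were thus the higher by either library over all genes. With sites taken from 1 untreated CTBP2 library, an EVI1 site overlapped 7 of 23 lost and 7 of 11 kept sites without replicate 1, and 8 of 18 lost and 7 of 10 kept sites without replicate 2. The shares over all genes were not computed for sites taken in this way, so these counts have no background beside them. No CTBP2 site of the cluster was free of EVI1 in both untreated lists, whatever its fate.

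With dox, EVI1 had a peak at 6 of the 9 lost CTBP2 sites in at least 1 dox list, beside 72.8% over all genes, and at 4 in both. The 4 were the CD48 intron site, the LY9 site 5942 bp upstream and the CD244 sites 6962 and 1883 bp inside the gene. The 3 lost sites without an EVI1 peak under dox were that in the untranslated region of CD84 and the LY9 sites 18315 and 16048 bp upstream. In unmodified MUTZ3 cells the EVI1 list held 7 of the 10 kept sites, 2 of the 6 partly kept and 0 of the 9 lost sites, beside 66.8%, 34.4% and 15.9% over all genes.

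There were 19 EVI1 sites in the cluster, of 40449. With dox 2 were lost, 3 partly kept and 14 kept. The lost share over all genes was 9.01% and the kept share 78.1%. The mean share found in a dox library was 81.6% ± 3.72 (SD, n = 2) in the cluster and 84.5% ± 5.20 over all genes, a difference within the spread between the libraries. That spread does not cover the counting error of 19 sites, so it cannot decide whether the cluster differed. Without untreated EVI1 replicate 1, which left 33 sites of replicate 2, the cluster share was 53.0%. The 2 lost EVI1 sites were the one in the CD84 untranslated region and the LY9 site 15976 bp upstream, and both overlapped lost CTBP2 sites. A CTBP2 site overlapped 17 of the 19, beside 75.9% of all EVI1 sites. The exceptions were an intron site of CD84, which was kept, and a site 28841 bp upstream of SLAMF1, which was partly kept.

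Among the 14 kept EVI1 sites, both dox values were below both untreated ones at 2, beside 35.3% of all kept EVI1 sites. They were the CD48 intron site and the SLAMF1 site 16045 bp upstream. At 4 sites both dox values were above, 3 of them at CD244 and 1 at SLAMF1, beside 13.4% of all kept EVI1 sites, and at 8 the values overlapped. The median log2 ratio was -0.16, beside -0.25 over all kept EVI1 sites. The CD244 site 801 bp upstream was above partly through the long peak of dox replicate 1, with values of 5.32 and 6.49 untreated and 13.4 and 7.12 with dox.

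The 25 sites of the untreated inducible cells were looked up in the CTBP2 lists of other cells. Unmodified MUTZ3 held 11 of them, 44% (95% Wilson interval 26.7 to 62.9), where it held 31.2% of all sites. The 4xPLASS lists, which held 6688 and 31310 peaks, held 6 and 12, beside 13.7% and 52.2% of all sites. MOLM1 held 15, 60.0% (40.7 to 76.6), beside 61.9%. The genome's share lay inside the cluster's interval in each of these lists. The intervals cover counting error only, and neighbouring sites are not independent.

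In these lists too, kept sites were listed in larger number than lost ones. Of the 10 kept sites, 8 were in unmodified MUTZ3, 6 and 8 in the 4xPLASS lists and 9 in MOLM1. Of the 9 lost sites, 1 was in unmodified MUTZ3, 0 and 1 in the 4xPLASS lists and 3 in MOLM1. All 6 of the sites in 4xPLASS replicate 1 were kept sites, and over all genes that list held 4261 kept, 504 partly kept and 331 lost sites. Over all genes, unmodified MUTZ3 held 9.10% of lost and 59.0% of kept sites, and MOLM1 held 42.8% and 81.3%. The 4xPLASS lists held 2.17% and 25.2% of all lost sites and 29.8% and 81.7% of all kept sites. MOLM1 had 37 peaks in the cluster, of which 20 lay outside the CTBP2 sites of untreated MUTZ3. Sites needed a peak in both untreated libraries, and some of the 20 overlapped a peak of untreated replicate 2 alone, as at chr1:160675011-160675418. The matching share over all genes was not computed. Of the 9 regions with a peak in MOLM1 alone, 3 were at SLAMF1 and 2 each at CD244, SLAMF6 and SLAMF7.

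The list of other genes of the pathway held SH2D1A and SH2D1B, the adaptors, FYN, the kinase that SAP recruits, the phosphatases PTPN6, PTPN11 and INPP5D, the family members SLAMF8 and SLAMF9, and the related adhesion receptor CD2 with its ligand CD58. They had 39 CTBP2 sites, of which 19 were lost, 5 partly kept and 15 kept. This was 48.7% lost, beside 41.0% of all sites. INPP5D with 9 sites had 5 lost and 4 kept, and CD58 with 9 had 2 lost and 5 kept. FYN with 7 had 4 lost and 2 kept. The single site of SH2D1B, with an untreated fold enrichment of 18.5, was partly kept, and the single sites of PTPN11, SLAMF8 and SLAMF9 were lost.

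The letters of the windows were counted on both strands. AGATAA was in 5 of the 25 windows of 300 bases, 20.0%, beside 8.81% of the 36848 windows of all sites. In windows of 200 bases it was in 1 of 25, 4%, beside 5.70%. GGAAGT was in 12, 48.0%, beside 36.4%, and in 200 bases in 7, 28%, beside 28.2%. In the wider windows these 2 strings stood above the share of all sites, and in the narrower ones they did not. TGTGGT was in 7, 28%, beside 23.9%. CAGGTG was also in 7, beside 33.0%, and GATGAG was in 4, 16.0%, beside 16.2%. The longer EVI1 form ACAAGATAA was in none, beside 0.157% of all windows. ACAAGATAA holds AGATAA, so the 2 overlap. By fate, AGATAA was in 1 of 9 lost, 2 of 6 partly kept and 2 of 10 kept windows, GGAAGT in 2, 5 and 5 and TGTGGT in 4, 1 and 2. Of the 2 kept windows with AGATAA, that in the SLAMF1 intron was centred 670 and 657 bp from the CTBP2 summits of the dox lists. Over all genes AGATAA was in 7.59% of lost and 10.7% of kept windows, GGAAGT in 31.5% and 42.0%, and TGTGGT in 23.5% and 25.6%. The kept windows printed above held both ETS and RUNX letters beyond CD84 and neither in the 173 bases at the SLAMF1 start, and the lost window of CD48 held none of the 6 strings. The median GC content was 51.0% in the cluster and 56.7% over all windows. A match is a string of letters, not a shown binding site.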

How the data were processed

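Peak lists of 13 ChIP-seq libraries among 31 samples were analysed. The authors aligned reads to hg19 with Bowtie 1.1.1 and called peaks per library with MACS2 2.1.2 against a matched input, with versions as in the submitters' processing notes. Each treatment of the inducible cells had 1 input. The deposited score, which serves display in a genome browser, was left out. Fold enrichment, a ratio deposited by the authors, sets the summit against its local background. The −log10 p and −log10 q values were deposited as MACS2 gave them. Histone marks, other factors and inputs were not analysed here.

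The members and gene lists were chosen with earlier results of these data known. Overlapping peaks of a target were merged, sites were those present in both untreated libraries, summits came from replicate 1, and an overlap of 1 bp counted as shared. Start sites were the 5′ ends of 20176 protein-coding genes in GENCODE v44 lifted to GRCh37. Of 533140 peaks, 527011 lay on chromosomes of that build, 0 of them beyond an end. Named in full were the strongest CTBP2 site of each member in untreated replicate 1 and each lost site with a fold enrichment of at least 10. Sequences came from GRCh37. That of a further site is not reported here. Counts of EVI1 peaks were compared by an exact permutation test (scipy 1.17.1), with Python 3.11.15, and the overlap code was tested on simulated lists. Alternatives were other minimum values, overlaps, list sizes, windows and site rules, each library left out, and pairing by replicate number.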

Additional observations from a re-analysis of the deposited data

How the results depend on the processing

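Of 106 alternative values, 75 stayed within the spread or interval of the value reported, 30 moved and 1 changed direction. The EVI1 peak number kept its sign in all 10 alternatives (log2 -0.42 to -0.06), and the CTBP2 peak number in 8 of 9, the exception being lists of equal size (log2 0.46). The mean share of CTBP2 sites found with dox, 52%, was 44.7% with −log10 q of at least 5, 46.2% with fold enrichment of at least 5, 44% with summits within 200 bp, 50% in the window from SLAMF6 to CD244, 32% for sites of either untreated library and 87.5% (8 sites) in lists of equal size. Both dox libraries gave the same share, so any move passed their spread of 0. The EVI1 share, 81.6%, was 90% with −log10 q of at least 5 and in lists of equal size, 76.3% with summits within 200 bp and 56.8% for sites of either library.

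The share of lost CTBP2 sites with an EVI1 site, 77.8%, was 41.4% (12 of 29) and that of kept sites, 70%, was 100% for sites of either untreated library. Shares over all genes were not computed for sites of either library. Both were 100% in lists of equal size, where 1 site was lost. With the EVI1 list of unmodified cells the lost share was 0%. For sites of either library, unmodified MUTZ3 held 26% and 4xPLASS replicate 2 held 30%. In 200 bp windows AGATAA was in 4% and GGAAGT in 28%.

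Leaving out each library in turn gave 36.4% to 52% for the CTBP2 share, 53.0% to 84.2% for the EVI1 share, 30.4% to 100% for EVI1 at lost sites and 61.5% to 100% for EVI1 at kept sites. The lowest came without untreated CTBP2 replicate 1, without untreated EVI1 replicate 1, without untreated CTBP2 replicate 1 and without CTBP2 dox replicate 1, in that order, and EVI1 at lost sites was 44.4% without untreated CTBP2 replicate 2. Shares over all genes were not computed with an untreated CTBP2 library left out. Without untreated EVI1 replicate 1 all 9 lost sites had EVI1, and without replicate 2 all 10 kept sites did. The cause was not tested.

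The labels do not say that replicate numbers pair the libraries. Over all kept sites of the genome, the difference in log2 fold enrichment between replicates 1 and 2 was set untreated against dox. The Pearson r of these differences was 0.21 for CTBP2 (14297 sites) and -0.23 for EVI1 (31593 sites). With a replicate block, 39.0% of CTBP2 and 62.9% of EVI1 peaks were found with dox under the same number. With EVI1 numbers crossed, chosen after seeing the data, the share was 67.6%. No read depth is known, which limits every count of peaks.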
